A study of Mus musculus with 14 samples.

Results

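The genes described here encode the subcortical maternal complex of the mouse oocyte and proteins associated with it. The members were chosen by name (Nlrp5, Ooep, Tle6, Khdc3, Padi6, Nlrp2, Nlrp4f and Zbed3), and all 8 were found among the 24064 genes of the count table. Each had counts in every oocyte and passed the filter on low totals.

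The study removed the lysine demethylase Kdm1a from oocytes and sequenced poly(A) RNA of single oocytes. The wt/wt group was 4 oocytes of strain C57BL/6J with unmodified Kdm1a (wt1, wt3, wt4 and wt5). The f/f group was 1 oocyte, C3, of mixed B6;129 background, homozygous for a floxed Kdm1a allele. The mutant group was 5 oocytes of mixed B6;129 background (D1, D2, D3, D4 and D7), labelled mko/mko, in which Zp3-driven Cre, active only in the female germline, deleted the floxed allele. The labels number every library as an oocyte of its own (14 in all), whereas libraries sharing an oocyte name were summed here as 1 oocyte, so C3, D3, D4 and D7 each stand for 2 libraries. The wt/wt and f/f oocytes together are called the 5 control oocytes. Strain, and the series of library names, changed between wt/wt and all other oocytes, so strain and allele cannot be told apart between wt/wt and the f/f oocyte. For every gene, strain and series also differ between the mutant oocytes and 4 of the 5 control oocytes. The age of the females was not given for the oocytes, and nothing in the labels says that the oocytes came from separate animals, so that p-values measure only the spread between these samples. Total counts ran from 1375187 in wt1 to 6928548 in C3.

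The subcortical maternal complex is a multiprotein assembly beneath the plasma membrane of the oocyte and early embryo. Its proteins are made during oocyte growth from maternal transcripts and persist after fertilization, and female mice lacking core members produce embryos that arrest at early cleavage. The complex has been linked to cortical actin, to spindle position and to symmetric division of the zygote.

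Kdm1a, the deleted gene, was read first as a check of the labels. It had 70, 43, 85 and 27 counts in wt1, wt3, wt4 and wt5, 669 counts in the f/f oocyte, and 0, 2, 4, 3 and 10 counts in D1, D2, D3, D4 and D7. Every mutant oocyte was below every control oocyte in CPM (the share of the library's counts, scaled to 1e+06, over library sizes adjusted by TMM factors), with a log2 fold change of -5.02 (SE 0.86, edgeR adjusted p = 0.00110; -4.05 without C3 and -5.97 without D7). A count of 0 in D1 allows up to 1.64 CPM, and since reads were amplified by PCR without molecular identifiers, such limits cover counting error only.

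A pair of control oocytes stood apart in these genes. The wt/wt oocyte wt5 had 1747 CPM of Nlrp5 where the other wt/wt oocytes had 113 to 145, and it was also the highest control oocyte for Ooep, Tle6 and Padi6. The f/f oocyte had 124124 CPM of Zbed3 where the wt/wt oocytes had 205 to 2118. Fold changes of members that depended on either oocyte are given with and without it. For transcripts measured in whole oocytes, less RNA in the cell and a smaller share of the RNA cannot be told apart.

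In mutant oocytes 4 of the 8 members were called higher than in control oocytes (adjusted p under 0.05 and at least 1 on the log2 scale), against 14.7% of the 9198 genes tested. None was called lower by edgeR, against 11.2% of all genes; 1 member, Nlrp4f, was lower at an unadjusted p under 0.05, DESeq2 also called none lower, and limma voom called 1. In either direction 25.9% of all genes passed. Members and lists were chosen with earlier results of these data known, so their counts beside the shares of all genes are description only. The median log2 fold change of the members was 2.24, and that of all genes tested was 0.17; without wt5 these were 3.15 and 0.20. With library totals in place of TMM the median of all genes was -0.22 and that of the members 2.14, and the calls among all genes were 965 higher and 1667 lower in place of 1353 and 1032; 4 members were then higher and 1 lower.

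**Figure D1:**
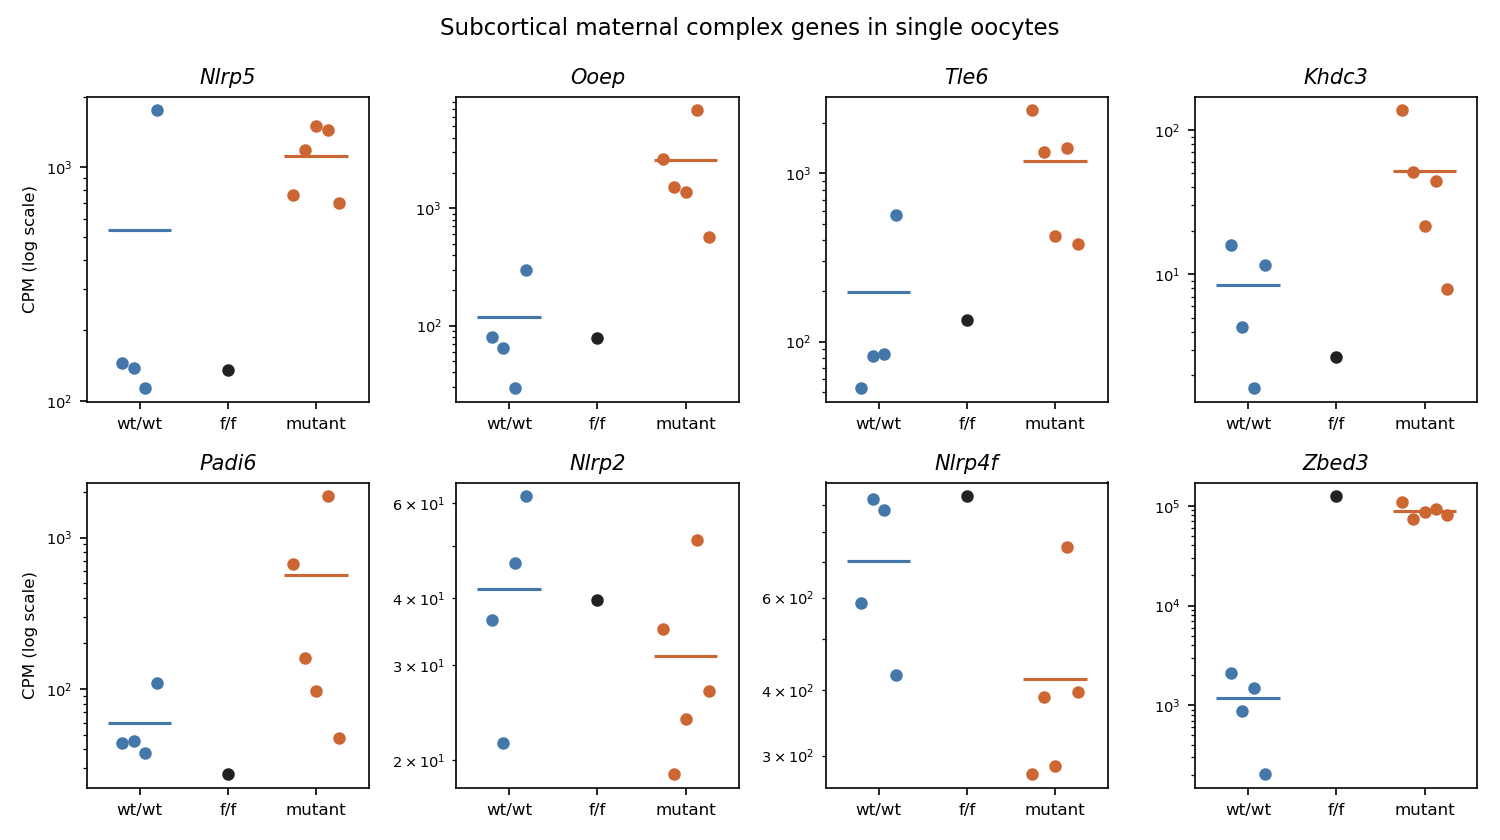
CPM (log axis, a separate scale in each panel) of each member in the 4 wt/wt oocytes, the f/f oocyte and the 5 mutant oocytes; each point is 1 oocyte and each line a group mean. Ooep was higher in every mutant oocyte than in every control oocyte, and Zbed3 was high in the f/f oocyte and in every mutant oocyte.

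Ooep encodes a KH-domain protein of the core of the complex and is required by the embryo from the mother. Its level was 79.5, 64.6, 29.4 and 300 CPM in wt1, wt3, wt4 and wt5, 78.4 CPM in the f/f oocyte, and 2627, 1527, 1379, 6816 and 573 CPM in D1, D2, D3, D4 and D7. All 5 mutant oocytes were above all control oocytes, a separation found upward for 8.10% of the genes tested and downward for 8.09%; Ooep was the only member that separated upward, and none separated downward. The log2 fold change was 4.55 (SE 0.73, edgeR adjusted p = 0.000760; 5.37 without wt5 and 3.80 without D4), and the exact permutation test gave p = 0.00794 (two-sided), the smallest that 5 against 5 oocytes can give.

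Tle6, a transducin-like protein that binds Ooep and Nlrp5 in the core, had 53.0, 82.7, 84.4 and 565 CPM in wt1, wt3, wt4 and wt5, 134 CPM in the f/f oocyte, and 2373, 1333, 427, 1423 and 382 CPM in D1, D2, D3, D4 and D7. D3 and D7 lay below wt5, so the groups overlapped, while all 5 mutant oocytes were above the f/f oocyte and the other wt/wt oocytes. The log2 fold change was 2.69 (SE 0.67, adjusted p = 0.00898), and 3.80 without wt5 (adjusted p = 0.000885). With every library as its own sample and the library number as replicate block, Tle6 did not pass (2.26, adjusted p = 0.0571).

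Khdc3, a KH-domain protein also known as Filia, binds to the core through its partners. It had 16.0, 4.31, 1.63 and 11.6 CPM in wt1, wt3, wt4 and wt5, 2.66 CPM in the f/f oocyte, and 137, 51.1, 21.7, 44.6 and 7.96 CPM in D1, D2, D3, D4 and D7. In the mutant group 4 oocytes were above every control oocyte and D7 was within the control range. The log2 fold change was 2.88 (SE 0.73, adjusted p = 0.00981), and 2.14 without D1 (adjusted p = 0.0456). Of the 49-base words of its transcript, 42.9% also occur in Gm20509, an overlapping gene on the same strand. The Khdc3 counts may be affected by this, and how far was not tested.

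Padi6, a peptidylarginine deiminase of the oocyte cytoplasmic lattices, had 44.2, 45.6, 37.5 and 110 CPM in wt1, wt3, wt4 and wt5, 27.5 CPM in the f/f oocyte, and 664, 161, 97.8, 1869 and 47.7 CPM in D1, D2, D3, D4 and D7. D1, D2 and D4 were above all control oocytes, whereas D3 and D7 were below wt5. The mutant oocytes themselves differed 39.1-fold between D4 and D7. The log2 fold change was 3.43 (SE 0.81, adjusted p = 0.00709), 2.21 without D4 (adjusted p = 0.0245) and 3.89 without wt5 (adjusted p = 0.00702). In the fit with the library number as replicate block Padi6 did not pass (1.63, adjusted p = 0.124).

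Nlrp5, also known as Mater, was the first maternal-effect gene of the complex to be described in mice. Its level was 145, 138, 113 and 1747 CPM in wt1, wt3, wt4 and wt5, 135 CPM in the f/f oocyte, and 756, 1186, 1500, 1438 and 705 CPM in D1, D2, D3, D4 and D7. All mutant oocytes were above the f/f oocyte and above the wt/wt oocytes other than wt5, which was the highest of all 10. With all oocytes the log2 fold change of 1.29 (SE 0.69, adjusted p = 0.173) did not pass; without wt5 it was 3.10 (SE 0.39, adjusted p = 0.000364).

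Nlrp2 and Nlrp4f are NLR-family proteins associated with the complex rather than members of its first described core. Nlrp2 had 36.4, 21.5, 46.5 and 61.8 CPM in wt1, wt3, wt4 and wt5, 39.6 CPM in the f/f oocyte, and 35.0, 18.8, 23.8, 51.3 and 26.9 CPM in D1, D2, D3, D4 and D7. The groups overlapped, with only D2 below all control oocytes, and the log2 fold change was -0.39 (SE 0.39, adjusted p = 0.479). Nlrp4f had 585, 926, 882 and 426 CPM in wt1, wt3, wt4 and wt5, 935 CPM in the f/f oocyte, and 277, 387, 287, 750 and 396 CPM in D1, D2, D3, D4 and D7. D1, D2, D3 and D7 were below all control oocytes and D4 was within their range. The log2 fold change of Nlrp4f was -0.84 (SE 0.37, adjusted p = 0.102) and did not pass; without D4 it was -1.15 (adjusted p = 0.0301), and with library totals it was -1.22 (adjusted p = 0.0216).

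Zbed3, a zinc-finger protein that binds Axin in Wnt signalling and associates with the complex, differed most in level between oocytes. It had 2118, 870, 1489 and 205 CPM in wt1, wt3, wt4 and wt5, 124124 CPM in the f/f oocyte, and 108258, 73729, 87383, 93409 and 81503 CPM in D1, D2, D3, D4 and D7. In this CPM, which uses TMM factors, the f/f oocyte was above every mutant oocyte, and the wt/wt oocytes were far below all 6 of the others. As shares of total counts, D1 (8.44%) and D4 (8.89%) were above C3 (8.09%). Zbed3 took 0.0279% to 0.279% of the counts of a wt/wt oocyte, 8.09% of those of C3, and between 6.02% and 8.89% of those of a mutant oocyte, in which it was the most abundant gene, as in C3. With TMM factors the f/f oocyte was 106-fold above the wt/wt mean, and the mutant mean was 0.716 of the f/f level. As shares of total counts the means were 0.154% in wt/wt and 7.72% in mutant oocytes, beside 8.09% in C3.

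The call for Zbed3 depended on the control and on the method. With all control oocytes the log2 fold change was 1.79 (SE 1.19, adjusted p = 0.278), with wt/wt oocytes alone it was 6.28 (SE 0.59, adjusted p = 1.37e-05), and against the f/f oocyte alone it was -0.46 (adjusted p = 0.581), the reverse direction. With all oocytes DESeq2 gave no adjusted p for Zbed3, and limma voom, which weights samples by quality, called it higher (5.96, adjusted p = 8.12e-06). The exact permutation test, taken on mean log2 CPM, gave two-sided p = 0.0476 for Zbed3 and for Nlrp5, 0.0238 for Tle6, 0.0317 for Khdc3, 0.0397 for Padi6 and for Nlrp4f, and 0.270 for Nlrp2. Against wt/wt oocytes alone, 5 of the 8 members were called higher (Ooep, Tle6, Khdc3, Padi6 and Zbed3), where 18.8% of the 9166 genes tested were, and none lower, where 12.7% were; at an unadjusted p under 0.05 1 member was lower.

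Other genes shared the step from wt/wt to the remaining oocytes. In 784 of the 9198 genes tested C3 and all mutant oocytes were above all wt/wt oocytes, and in 700 they were below. A step of at least 10-fold, a size chosen after the values were seen, was found for 11 genes including Zbed3 (34.8-fold). The highest wt/wt level was taken as no less than the CPM of 3 counts. It was 2118 CPM for Zbed3 but near that floor for others, such as Stk25 (2.76 CPM) and Ppp4c (0.448 CPM), whose steps are imprecise. On chromosome 13, Zbed3 lies at chr13:95323612-95337841 on the plus strand (GENCODE for GRCm38, which is mm10). Its neighbours within 250 kb were at low levels: Aggf1, next to it on the minus strand, had a mean of 20.5 CPM in wt/wt oocytes, 9.75 CPM in the f/f oocyte and a mean of 12.1 CPM in mutant oocytes. No 49-base word of the Zbed3 transcript was found in another gene.

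Among themselves the members were compared per length, as CPM per kb of the last 3 kb of the transcript, the reach of the method. In wt/wt oocytes the order of mean levels was Zbed3 (602 ± 422, SD, n = 4), Nlrp4f (235 ± 79.8), Nlrp5 (179 ± 269), Tle6 (97.4 ± 122), Ooep (55.3 ± 57.4), Padi6 (25.4 ± 14.6), Nlrp2 (13.9 ± 5.64) and Khdc3 (4.99 ± 3.93). Neighbours in that order differed by less than the larger of their SDs, except Nlrp2 and Khdc3. Without wt5, a comparison added after the values were seen, the order was the same, and per kb the mean was 44.0 for Nlrp5, 36.4 for Tle6, 27.0 for Ooep and 266 for Nlrp4f. Then Zbed3 and Nlrp4f, Nlrp4f and Nlrp5, Padi6 and Nlrp2, and Nlrp2 and Khdc3 differed by more than the larger SD. In mutant oocytes it was Zbed3 (45684 ± 6715, SD, n = 5), Ooep (1209 ± 1158), Tle6 (589 ± 408), Nlrp5 (372 ± 124), Padi6 (243 ± 329), Nlrp4f (140 ± 64.3), Khdc3 (31.2 ± 29.9) and Nlrp2 (10.4 ± 4.23). There only Zbed3 and Ooep, and Nlrp4f and Khdc3, differed by more than the larger SD. The means of Ooep and Padi6 rested much on D4, at 3188 and 801 per kb. The other mutant oocytes had 268 to 1229 for Ooep and 20.5 to 285 for Padi6. Padi6 was above Nlrp4f in D1 and D4 and below it in D2, D3 and D7.

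Shares of the members' own summed count do not depend on the scaling between oocytes. Without Zbed3, Nlrp4f made up 61.0%, 72.2% and 73.8% of the sum in wt1, wt3 and wt4, 13.2% in wt5 and 69.1% in C3; the mutant range was 4.03% to 18.5%. Ooep made up 2.46% to 9.31% in control oocytes and 26.8% to 55.0% in mutant oocytes, without overlap. Nlrp2 made up 1.68% to 3.89% in control oocytes and 0.404% to 1.26% in mutant oocytes, also without overlap, but its CPM overlapped, and the sum of these 7 members was on average 0.196% of total counts in control and 0.524% in mutant oocytes. In wt5 Nlrp5 alone made up 54.2%. With Zbed3 in the sum, Zbed3 made up 88.3% to 97.4% in mutant oocytes and 98.9% in the f/f oocyte, against 5.97% to 68.8% in wt/wt oocytes.

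**Figure D2:**
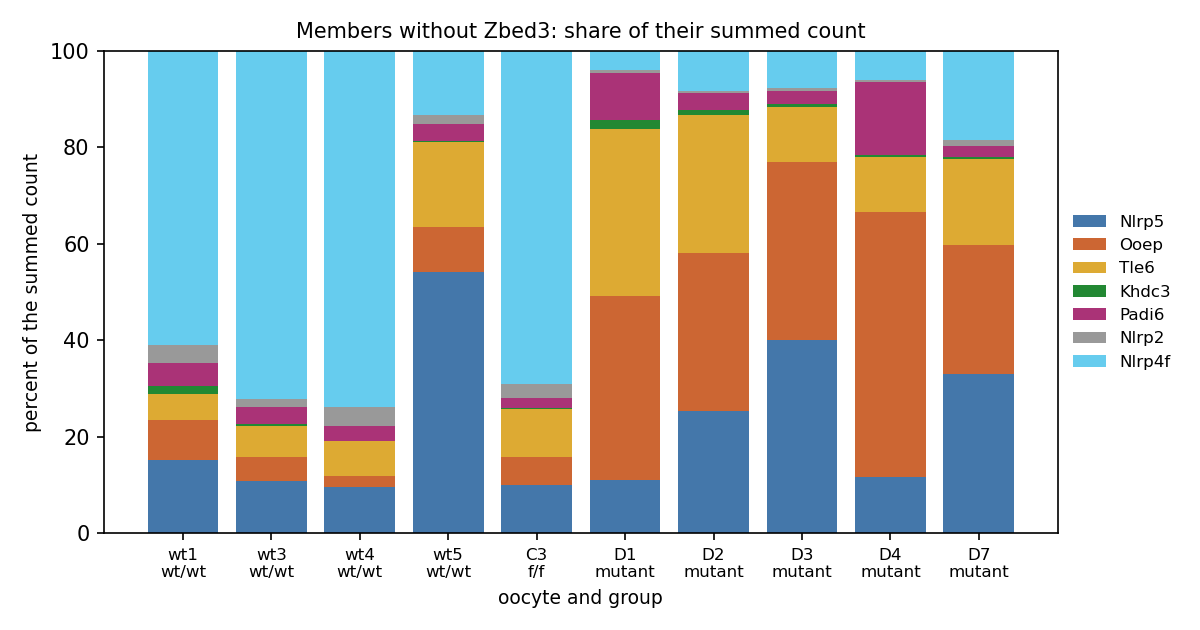
Share of each member in the summed count of the members other than Zbed3, in percent (vertical axis), for each oocyte (horizontal axis, with its group). Nlrp4f had the largest share in wt1, wt3, wt4 and C3, and Ooep had 26.8% to 55.0% in the mutant oocytes.

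The members' profiles were compared by the root mean square difference of centred log2 CPM over the 10 oocytes, a description without a test. The profiles were not scaled, so nearly flat profiles are close whatever their pattern. For example, wt5 was the highest control oocyte for Nlrp2 (61.8 CPM) and the lowest for Nlrp4f (426 CPM). Nlrp2 and Nlrp4f were 0.72 apart, where the median distance of all genes was 1.02 from Nlrp2 and 1.09 from Nlrp4f, and Tle6 was 0.98 from Nlrp5, 1.08 from Khdc3, 1.09 from Padi6 and 1.10 from Ooep, whereas Zbed3 was 2.68 or more from every member. The genes nearest to the mean of Nlrp5, Ooep, Tle6, Khdc3 and Padi6 were Fen1 (0.39), Ccdc175 (0.39) and Polr1d (0.40), where the median of all genes was 1.87. Fen1 and Ccdc175 were very low in control oocytes, so their distances are imprecise. Their wt/wt means were 0.783 and 0.581 CPM, and C3 had 0 and 0.221 CPM. Nearest to Nlrp4f were Gm11545 (0.29), Hiat1 (0.30) and its relative Nlrp4a (0.31), and nearest to Nlrp2 were Rfx5 (0.28), Pithd1 (0.32) and Mrps15 (0.33). Nearest to Zbed3 were Mansc1 (0.57), Sap30 (0.96) and Stk25 (1.05), where the median of all genes was 3.42. Each of these 3 genes was at least 10-fold higher in C3 and every mutant oocyte than in any wt/wt oocyte. Stk25 was very low in wt/wt oocytes (mean 0.802 CPM), so its distance is imprecise. Of the 49-base words of Nlrp5, 10.4% occur in other annotated genes, among them the pseudogene Nlrp5-ps, and of those of Nlrp4f 8.84%, in Nlrp4g, Gm47180, Gm18775 and Nlrp4a, the last of which is also among its nearest genes.

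The libraries of an oocyte could be set against each other for C3, D3, D4 and D7, each of which had a library with and one without the suffix DNA. As CPM over library totals, Tle6 was higher in the library without the suffix in all 4 oocytes, by 1.67-fold to 2.02-fold, and Padi6 by 1.31-fold to 1.81-fold. For Zbed3 the ratio ran from 0.637 to 1.03. For Tle6 and Padi6 these differences were smaller than those between the group means, 6.46-fold and 10.7-fold. The ratio of Tle6 depended on wt5, without which its fitted log2 fold change was 3.80. That of Padi6 depended on D4, without which its fitted log2 fold change was 2.21. Nlrp2 was lower in the library without the suffix in all 4 oocytes (ratios 0.632, 0.413, 0.861 and 0.924), a range that includes its ratio of group means, 0.757, and Khdc3 ran from 0.344 to 1.10.

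Other maternal-effect genes were tested as a list, of which 19 of 21 passed the filter. In mutant oocytes 7 were called higher and 3 lower, where 14.7% and 11.2% of all genes were, with a median log2 fold change of 0.96. Nlrp14 rose from 269 to 1104 CPM in control oocytes to 2174 to 16766 CPM in mutant oocytes (log2 fold change 4.21, SE 0.61, adjusted p = 0.000548), and the autophagy gene Atg5 (2.63), the chromatin chaperone gene Npm2 (4.39) and the DNA methyltransferase gene Dnmt1 (3.13) were also higher (Npm2 5.44 without wt5, Dnmt1 4.17 without C3). The dioxygenase gene Tet3 (-1.62), the cadherin gene Cdh1 (-1.11) and the heat-shock factor gene Hsf1 (-1.50) were lower. Tcl1 (0.75, adjusted p = 0.246) and Btg4 (0.44, adjusted p = 0.418) did not pass. Without C3 Tcl1 was called higher (1.40, adjusted p = 0.00543), and without wt5 Hsf1 did not pass (-1.30, adjusted p = 0.0510), nor without D1 or D3. Cdh1 did not pass without D7.

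Of the Wnt partners of Zbed3, 9 were tested, 1 was called lower, near the 11.2% of all genes, and none higher by edgeR, with a median log2 fold change of 0.25. The one called lower was Apc, a scaffold of beta-catenin destruction, at 198 to 375 CPM in control and 60.7 to 145 CPM in mutant oocytes (log2 fold change -1.74, SE 0.35, adjusted p = 0.00293). Ctnnb1 (-1.21, adjusted p = 0.120) and Gsk3a (0.25, adjusted p = 0.736) did not pass. The Ctnnb1 value rested on C3, at 2454 CPM: without C3 it was -0.23 (adjusted p = 0.677), and without wt5 it was called lower (-1.47, adjusted p = 0.0422). At an unadjusted p under 0.05 1 of the 9 was higher; DESeq2 called none higher, limma voom 3, and edgeR with wt/wt oocytes alone as control 2.

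Family relatives of the members gave 4 higher and 1 lower of 18 tested, where 14.7% and 11.2% of all genes were, with a median of 0.39. Aes (3.76), Zbed5 (4.77), Dppa5a (2.40) and Nlrp1a (2.08) were called higher and Nlrp4a (-1.07) lower, while the abundant relatives Khdc1b (1.42, adjusted p = 0.187) and Nlrp4b (-0.24, adjusted p = 0.664) did not pass. Without C3 Khdc1b was called higher (3.45, adjusted p = 9.98e-05), as it was with library totals. Its f/f level of 14926 CPM, with TMM factors, was above every mutant oocyte as for Zbed3. As a share of total counts, D2 (23159 of 2016701) and D3 (32026 of 3245395) were above C3 (67387 of 6928548). Zbed5, at 252 CPM in D4, and Dppa5a did not pass without D4, nor Nlrp1a without D1. Zbed5 was also not called by DESeq2 or limma voom, Dppa5a not by limma voom, and Nlrp1a not with library totals. With the library number as replicate block Zbed5, Dppa5a and Nlrp1a did not pass. Nlrp4a did not pass in 11 of 25 alternatives, without C3 among them (-0.98, adjusted p = 0.0329). Of 5 oocyte transcription factors tested, 3 were called higher and 1 lower, against the same shares of all genes. Lhx8 (3.17), Figla (5.71) and Nobox (2.62), factors of the oocyte programme, were higher, Taf4b was lower (-1.96; not called without wt4, which had 62.0 CPM), and Sohlh2 (-0.07, adjusted p = 0.947) did not pass.

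Markers of cell types were read beside the members. All 12 oocyte markers had counts, and 7 were called higher in mutant oocytes, where 14.7% of all genes were, and none lower, where 11.2% were, by edgeR, DESeq2, limma voom or with library totals (0 lower at an unadjusted p under 0.05). Their summed level was 30850, 28991, 28219 and 46826 CPM in wt1, wt3, wt4 and wt5, 89382 CPM in the f/f oocyte, and 151776, 128569, 90212, 70125 and 87195 CPM in D1, D2, D3, D4 and D7, with Gdf9 the most abundant. By p, Zp2 (4.75), Figla (5.71), Zp3 (3.27) and Dppa3 (2.27) led the higher markers, while Zp1 (2.54) had a larger fold change than Dppa3. Without C3 Figla was 6.97 and Dppa3 3.30, and without wt5 Zp2 was 5.39. Figla had 4 counts or fewer in each control oocyte, so its value is imprecise. H1foo (0.98, adjusted p = 0.126) and Oosp1 (-0.29, adjusted p = 0.578) did not pass. Without C3 H1foo was called higher (1.48, adjusted p = 0.00642). With TMM factors the sum in the f/f oocyte lay within the range of the mutant oocytes. The factor was 0.652 in C3 and 0.779 to 0.952 in mutant oocytes. As a share of total counts the sum was lower in C3 than in every mutant oocyte. How far the level of these markers bears on the members was not tested.

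Of 15 cumulus and granulosa cell markers, 8 were at 0 in every oocyte (Inha, Inhba, Foxl2, Amh, Fshr, Lhcgr, Ptx3 and Tnfaip6) and 3 were tested. Their summed level was 79.5, 41.3, 55.9 and 20.6 CPM in wt1, wt3, wt4 and wt5, 71.1 CPM in the f/f oocyte, and 93.5, 85.7, 156, 120 and 113 CPM in D1, D2, D3, D4 and D7. Cyp19a1 was the most abundant on average and was called higher (log2 fold change 1.48, adjusted p = 0.0263), but not with library totals or without wt3, while Nr5a2 (-1.60, adjusted p = 0.0915) and Kitl (-0.34, adjusted p = 0.725) did not pass. Nr5a2 was called lower without C3 (-1.88, adjusted p = 0.0297), by limma voom and with library totals. All 6 blood markers were at 0 in every oocyte.

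The bases before the start of Padi6 are shown because it was called higher and is the only such member whose RefSeq start is that of the annotated GENCODE gene. The corresponding windows of Tle6 and Khdc3 lie inside the annotated gene by 173 and 250 bases, and that of Ooep by 137 bases. Shown are the 250 bases upstream of the RefSeq start on GRCm38.p6, chr4:140742644-140742893, read 5′ to 3′ on the minus strand. Capitals mark matches to the E-box CANNTG, which is its own complement on the other strand; the NOBOX element TAATTG and its variant TGATTG were also sought, on either strand. Of 32851 promoters of this length, 66.2% hold CANNTG, 7.17% TAATTG and 12.7% TGATTG. Padi6 held 2 matches to CANNTG, which do not overlap, and 0 to the others. A match is a description of letters and not of a bound site.
Padi6: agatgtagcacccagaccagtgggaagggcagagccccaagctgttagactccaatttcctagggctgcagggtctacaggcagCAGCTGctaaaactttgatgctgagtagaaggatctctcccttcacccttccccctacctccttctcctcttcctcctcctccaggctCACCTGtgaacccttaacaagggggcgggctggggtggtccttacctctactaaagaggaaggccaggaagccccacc

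These results have limits. The control for strain is 1 f/f oocyte. By the comparison with wt/wt oocytes, the mutation, the background and the library series cannot be told apart. That holds for Zbed3 and for every other member and listed gene, called or not. With 5 against 5 oocytes no exact p can be below 0.00794, and with edgeR on summed oocytes Nlrp5 passed only in fits without wt5, while limma voom called it with wt5 kept. Counts come from the 3′ end of amplified poly(A) RNA, so transcript structure, poly(A) tail length and protein of these genes were not analysed here. Khdc3 shares much of its sequence with an overlapping gene and was low in control oocytes. The members were summed over libraries by oocyte name, and what the suffix DNA means was not stated. A gene that was not called may still differ. Causes of the differences between wt5 and the other wt/wt oocytes were not tested.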

How the data were processed

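Poly(A) RNA of single oocytes was amplified by a method reading up to 3 kb from the 3′ end. The authors aligned single-end 49-base reads to mm10 with TopHat 2.0.6 and deposited raw counts per RefSeq gene from HTSeq (0.5.3p9 in the submitters' notes); strand use was not stated. The labels describe extraction of embryos although the stage given is oocyte. Libraries sharing an oocyte name were summed (14 libraries, 10 oocytes); 1 column with transposed characters was assigned to the matching title.

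Of 15432 genes with a count, the top 60% by total (9198) were tested with edgeR 4.0.16 (R 4.3.3; TMM, glmQLFit, Benjamini-Hochberg), called at adjusted p under 0.05 with a change of 1 or more on the log2 scale. Library sizes were total counts. After a first run the fit was switched to sizes over kept genes, because this gave 2384 called genes, an earlier count for these data, in place of 2385. That was no reason to prefer it, so the first definition was restored and the other is an alternative. Other alternatives used DESeq2 1.42.0, limma 3.58.1, other scalings, filters, units and controls, and each oocyte left out. Named genes were Kdm1a, the members, their 3 nearest genes, and from each list described up to 4 called a direction by p and up to 2 abundant ones not called. Members and lists were chosen with earlier results of these data known. The 10-fold step and the fit with neither wt5 nor C3 were chosen after the values were seen.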

Additional observations from a re-analysis of the deposited data

Results flagged for a closer look

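In groups of 4 or 5 oocytes, the highest or lowest oocyte was set against the nearest of the others and the whole range (Dixon's 95% criterion). Of 27 sets of values, 11 stood apart. A rate of about 1 in 20 sets, or 1.35, would hold for independent, normally distributed values. CPM and totals were used here without a log scale, so the 2 numbers cannot be set against each other. Many of these sets share an oocyte and are not independent. The oocyte wt5 was far above the others for Nlrp5 (1747 CPM, next 145), among all control oocytes and among wt/wt oocytes alone. It was likewise the highest for Tle6 (564.8 CPM) and Padi6 (110.1 CPM), both among control and among wt/wt oocytes, and for Ooep (299.8 CPM) among control oocytes. The f/f oocyte C3 was far above the other control oocytes for Zbed3 (124124 CPM, next 2118). Among mutant oocytes D4 was the highest for Nlrp4f (749.7 CPM, next 396). Total counts were highest in C3 among control oocytes (6928548) and in D4 among mutant oocytes (6926076), both of which had 2 libraries. What set these oocytes apart was not tested.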

How the results depend on the processing

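Of 207 comparisons of a member's log2 fold change with an alternative, 188 kept their direction and side of the threshold, 6 no longer passed, 12 newly passed and 1 reversed (Zbed3, -0.46 with the f/f oocyte alone as control). Permutation results were judged by their own unadjusted p together with a difference of at least 1 in mean log2 CPM, and Zbed3 under DESeq2, which had no adjusted p, is counted by direction only. The 4 called members kept their direction under all 26 alternatives; wt/wt oocytes alone as control and leaving out C3 are the same fit, counted once. Leaving out each oocyte in turn gave 4 to 5 members, 22 to 33 list genes (over 5 lists without the cell-type markers, 1 of the 5 not described) and 1607 to 2885 genes called, against 4, 26 and 2385. Against the f/f oocyte alone edgeR called 0 members, 0 list genes and 3 genes, a fit with 1 control sample whose spread was taken from the mutant oocytes; 5 members, 15 list genes and 1674 genes had an unadjusted p under 0.05. The log2 fold changes were then 5.05 for Ooep, 3.17 for Tle6, 4.30 for Khdc3, 4.37 for Padi6 and 3.07 for Nlrp5, above those of the fit with all oocytes. Limma voom with sample quality weights called 7 members, and 3171 of 9198 genes; the cause was not tested. With neither wt5 nor C3 among the controls, chosen after seeing the data, 6 members were called, and 2808 of 9032 genes. Library sizes over the genes kept, also chosen after seeing the data, gave 2384 genes and the same number of members. Library numbers in the descriptions recur across groups. Deviations of same-numbered control and mutant libraries correlated at 0.0751 (wt3, D2), 0.0984 (wt4, D3-DNA), -0.0902 (wt5, D3) and -0.0127 (C3, D1). No differently numbered pairs are given beside these, and whether a shared number means a shared batch was not tested. With every library as its own sample and the library number as replicate block, edgeR called 966 genes, 3 members and 16 list genes. In that fit, with fewer residual degrees of freedom, Tle6 and Padi6 were lost and Nlrp5 was gained (2.21, edgeR adjusted p = 0.0317). All 32 comparisons of the members' levels per kb with another length or scaling moved by less than the SD between oocytes. That check is weak. Transcripts of Ooep, Tle6, Khdc3, Padi6 and Zbed3 are shorter than 3 kb, so their whole-length values were the same by construction. In some sets the SD exceeded the mean, as for Nlrp5 in wt/wt oocytes (179 ± 269). Without wt5, chosen after seeing the data, the wt/wt level of Nlrp5 was 44.0 in place of 179. Leaving Zbed3 out of the sum moved 11 of 14 shares by more than the SD. In mutant oocytes Zbed3 made up 88.3% to 97.4% of that sum, so large moves there follow from arithmetic. Khdc3 rested on few counts in wt/wt oocytes, which limits the precision of its fold change.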
